A study of Mus musculus with 16 samples.

Results

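Metallothioneins are small, cysteine-rich proteins that bind zinc and copper in the cytosol. Their genes are switched on by metals through the transcription factor MTF1, which binds metal response elements, and also by glucocorticoids, cytokines and oxidative stress. Free zinc in a cell is set by transporters: the SLC39 (ZIP) proteins bring zinc into the cytosol and the SLC30 (ZnT) proteins move it out of the cell or into vesicles. Macrophages are known to change metallothioneins and zinc transporters when they meet inflammatory signals.

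Of the 55487 genes counted in this series, 5 were described here: Mt1 and Mt2 (the metallothioneins found in most tissues), Mtf1 (the zinc-sensing transcription factor), Slc30a1 (ZnT1, the zinc exporter of the plasma membrane) and Slc39a14 (ZIP14, a zinc importer that also carries iron and manganese). The genes were selected on the Mt1 values of these libraries, because the ruxolitinib effect on Mt1 depended on the culture medium, so every value from that contrast is given as a description and not as a finding. All 5 were among the 12372 genes that passed the filter on low counts.

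The libraries were poly(A) RNA-seq of bone marrow-derived macrophages (BMDMs) from wild-type Balb/c mice of 8 weeks. BMDMs were kept in plain medium (DMEM, n = 2), in DMEM with ruxolitinib (DMEM + Rux, n = 3), in medium conditioned by 4T1 cells, a mouse mammary tumor line (CM, n = 3), in CM with ruxolitinib for groups labelled 4 h (CM + Rux 4 h, n = 3) and 2 h (CM + Rux 2 h, n = 2), or in CM with ruxolitinib and IKK-16 (CM + Rux + IKK-16, n = 3). Ruxolitinib inhibits the kinases JAK1 and JAK2 and was used in CM at 0.5 μM, and IKK-16 inhibits the IκB kinases that activate NF-κB and was used at 0.8 μM. The sources used here do not give the dose of ruxolitinib in DMEM, what the 2 h label refers to, or whether the libraries of a group came from separate animals or cultures, so p-values measure only the spread between these libraries. Totals ran from 18449388 to 46215853 counts per library, and the members had between 155 counts (Mt2 in DMEM + Rux) and 20077 counts (Slc39a14 in CM + Rux 4 h).

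The 11 macrophage markers (Lyz2, Csf1r, Adgre1, Cd68 and others) were all above 0 in every library and summed to between 41324 and 58685 normalized CPM (counts divided by the total of the genes that passed the filter, after scaling that total by the edgeR RLE factor, and put on a common scale), with Lyz2 the most abundant. Epithelial markers, which would mark carried-over 4T1 cells, summed to 0 to 1.45 CPM, and Krt14 and Krt5 were at 0 throughout. Neutrophil markers summed to 2.22 to 8.24 CPM with Ly6g and Retnlg at 0, T and NK cell markers to 4.81 to 13.1 CPM (mostly Cd4), and fibroblast markers to 5.83 to 20.9 CPM. Mmp8, the only neutrophil marker that passed the filter, was called higher in CM (7.38 CPM) than in DMEM (2.64 CPM, log2 fold change 1.49). With ruxolitinib in both media it was not called (0.22). B cell markers, almost all Ighm with Pax5 at 0, summed to 80.2 to 144 CPM in the DMEM and DMEM + Rux libraries, to 10.6 to 15.6 CPM in CM, CM + Rux 4 h and CM + Rux + IKK-16, and to 71.4 and 55.7 CPM in CM + Rux 2 h. Dendritic cell markers, mostly Zbtb46, summed to 8.59 and 12.7 CPM in CM + Rux 2 h and to 0.785 to 2.36 CPM elsewhere. The part that these markers have in the results was not tested. In bulk RNA, fewer cells of a type and less RNA per cell cannot be told apart.

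Mt1 and Mt2 lie side by side on chromosome 8 (GRCm38), Mt2 at chr8:94172664-94173568 and Mt1 at chr8:94179082-94180327, both on the plus strand. Slc30a1 lies at chr1:191906767-191913247 on the plus strand, Mtf1 at chr4:124802104-124849800 on the plus strand and Slc39a14 at chr14:70303469-70351425 on the minus strand. Counts were taken over exons, on the strand of the gene. The 250 bases before the RefSeq start of the 2 metallothioneins and of the exporter are shown because these genes are the known targets of MTF1. They are plus-strand reference sequence (RefSeq, GRCm38.p6, not the Balb/c genome), and capitals mark the core of the metal response element, searched as TGCACNC and TGCGCNC on both strands, so that no stretch of a strand can match both spellings.
Mt1, chr8:94178839-94179088: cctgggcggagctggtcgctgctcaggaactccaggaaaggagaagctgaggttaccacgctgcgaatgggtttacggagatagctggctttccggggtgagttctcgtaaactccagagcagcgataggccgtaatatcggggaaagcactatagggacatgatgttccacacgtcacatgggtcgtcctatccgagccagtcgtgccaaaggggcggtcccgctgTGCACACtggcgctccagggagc
Mt2, chr8:94172368-94172617: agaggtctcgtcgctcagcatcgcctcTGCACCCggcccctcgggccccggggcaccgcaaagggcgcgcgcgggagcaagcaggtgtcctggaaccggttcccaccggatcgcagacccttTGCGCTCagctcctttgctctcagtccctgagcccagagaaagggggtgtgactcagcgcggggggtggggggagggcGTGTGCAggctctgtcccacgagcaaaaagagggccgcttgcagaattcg
Slc30a1, chr1:191906531-191906780: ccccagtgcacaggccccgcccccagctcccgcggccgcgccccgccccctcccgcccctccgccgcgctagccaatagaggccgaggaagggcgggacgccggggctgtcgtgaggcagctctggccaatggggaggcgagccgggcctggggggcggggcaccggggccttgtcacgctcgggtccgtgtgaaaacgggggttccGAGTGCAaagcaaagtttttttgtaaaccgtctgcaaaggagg

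The Mt1 window held 1 core, TGCACAC, beginning 23 bases before the start. Mt2 held 3, of which TGCACCC and TGCGCTC were on the plus strand, 223 and 128 bases before the start, and TGCACAC was on the minus strand and is printed as its reverse complement. Slc30a1 held 1, TGCACTC on the minus strand, and the Mtf1 window held none. Of 32851 RefSeq windows of this length, 21.4% held at least 1 core and 1.26% at least 3. When the window was carried 50 bases past the start, to 300 bases, Mt1 held 3 cores, Mt2 4 and Slc30a1 2, against 1.97% of all windows with at least 3 and 0.517% with at least 4. A match is a description of the letters and not a bound site, and the annotated start of Mt1 decides which letters fall in its window.

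The metallothioneins were highest in CM. Mt1 was at 208.7, 315.6 and 187.7 CPM in the 3 CM libraries and at 38.6 and 50.4 CPM in DMEM. Mt2 was at 125.1, 187.6 and 82.7 CPM in CM and at 5.67 and 8.47 CPM in DMEM. The lowest CM library lay far above the highest DMEM library for both genes. Mt1 was 5.34-fold higher in CM (log2 fold change 2.42 ± 0.21 SE) and Mt2 18.8-fold higher (4.23 ± 0.36 SE, adjusted p = 3.3e-07). All p-values are from edgeR's quasi-likelihood test with Benjamini-Hochberg adjustment over the 12372 genes, and a gene was called at an adjusted p under 0.05 with a log2 fold change beyond 0.5. The comparison of CM with DMEM is part of the contrast that chose Mt1, so its Mt1 value is given as a description. The other comparisons tested below share libraries with that contrast, so no p for Mt1 is independent of the choice. Mt2 followed Mt1 across the libraries (r = 0.90), so its p-values are not free of the choice either.

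Ruxolitinib values are given as a description, since the choice of genes used them. With ruxolitinib in CM (4 h), Mt1 was at 64.8, 82.7 and 66.9 CPM and Mt2 at 44.7, 71.3 and 43.7 CPM. Every library of that group lay below every CM library, by 3.32-fold on average for Mt1 (log2 fold change -1.73 ± 0.17 SE) and 2.47-fold for Mt2 (-1.31 ± 0.26 SE). In DMEM with ruxolitinib, Mt1 was at 49.4, 54.0 and 60.6 CPM and Mt2 at 7.16, 9.09 and 9.45 CPM, and both groups overlapped DMEM alone (log2 fold change 0.30 ± 0.19 SE and 0.30 ± 0.33 SE). The difference between the effect in CM and that in DMEM was -2.03 ± 0.26 SE for Mt1 and -1.61 ± 0.42 SE for Mt2 on the log2 scale.

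**Figure D1:**
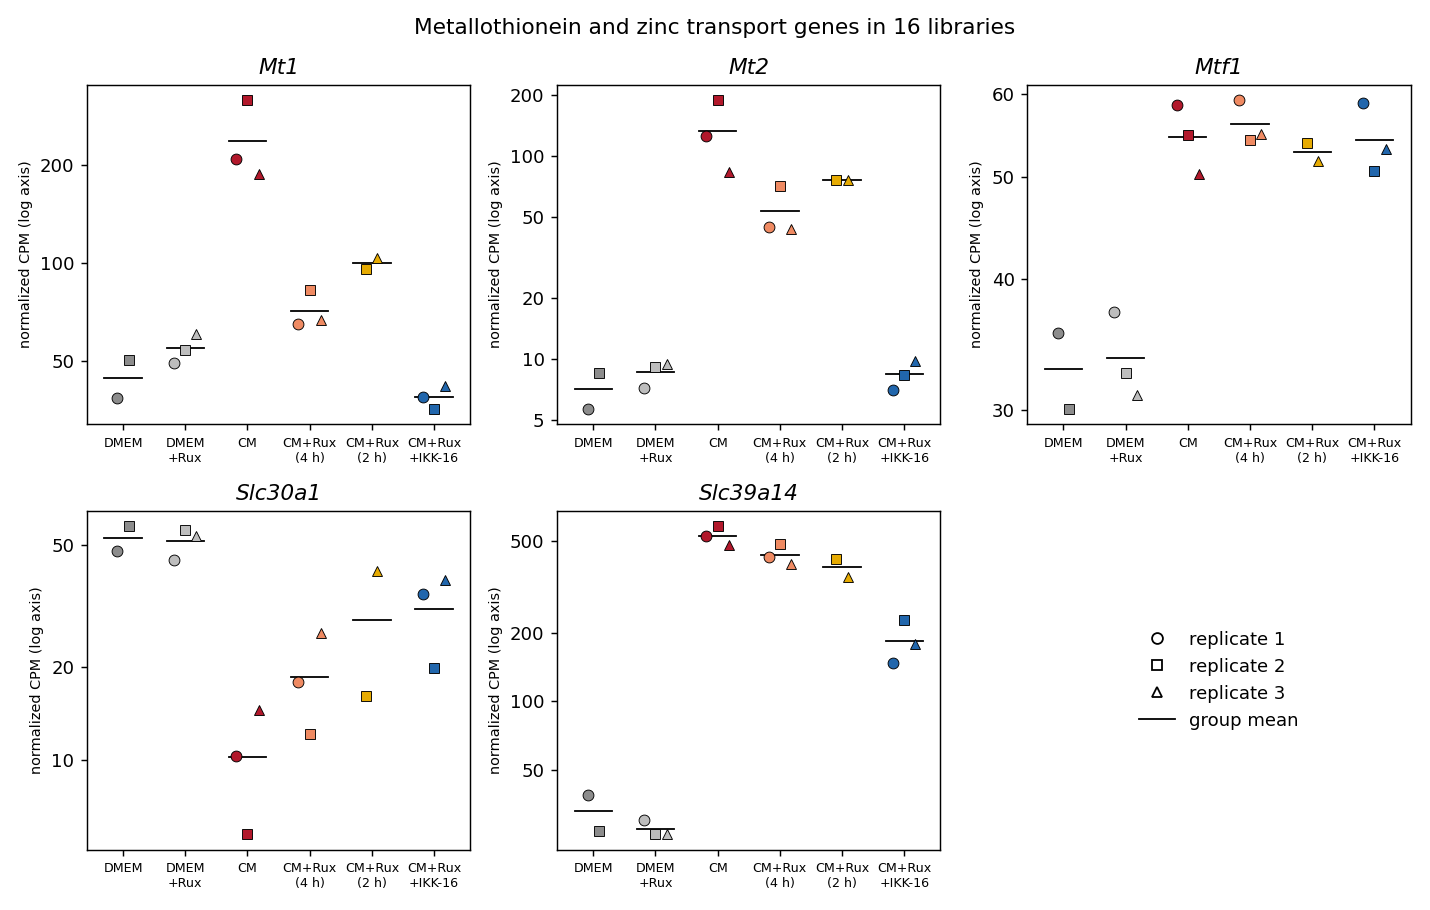
Normalized CPM (log axis, a separate scale for each gene) of the 5 genes in each of 16 libraries by group; points are libraries, shapes are replicate numbers and bars are group means. Mt1 and Mt2 peak in CM, Slc39a14 is high in every CM group, and Slc30a1 is highest in the DMEM groups.

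With ruxolitinib present in both media, Mt2 was higher with CM. It was 6.19-fold higher in CM + Rux 4 h than in DMEM + Rux (log2 fold change 2.63 ± 0.28 SE, adjusted p = 1.9e-06). This comparison less that of CM with DMEM is the contrast that chose Mt1, so the Mt1 value is given as a description. Mt1 was 1.31-fold higher (0.39 ± 0.17 SE), and its 3 libraries with CM, at 64.8 or above, did not overlap the 3 without, at 60.6 or below. Scaling by library totals in place of the RLE factors moved the Mt1 difference to 0.08. The median gene shifted by 0.30 between these scalings in this comparison, while the shift was 0.31 where neither medium held an inhibitor and 0.21 for both inhibitors against DMEM + Rux, so values across media are relative to that shift.

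Adding IKK-16 to CM and ruxolitinib lowered both metallothioneins, Mt2 to levels that overlapped the DMEM groups and Mt1 below DMEM + Rux. Mt1 was at 38.8, 35.8 and 42.1 CPM and Mt2 at 7.01, 8.35 and 9.76 CPM, with no overlap with CM + Rux 4 h. Mt2 fell 6.38-fold (log2 fold change -2.67 ± 0.28 SE, adjusted p = 9.1e-05) and Mt1 1.84-fold (-0.88 ± 0.17 SE, adjusted p = 0.0044). The CM + Rux 4 h libraries entered the contrast that chose Mt1, so its p here is not independent of that choice. Against DMEM + Rux, Mt2 differed by -0.04 on the log2 scale (95% interval -0.66 to 0.57, adjusted p = 0.91) and the libraries overlapped. Mt1 lay below all 3 DMEM + Rux libraries, by -0.49 on the log2 scale (95% interval -0.86 to -0.13, adjusted p = 0.024), just short of the fold threshold, and by -0.71 by library totals. Without DMEM + Rux replicate 1, DMEM + Rux replicate 2 or CM + Rux + IKK-16 replicate 3 it passed that threshold, at -0.56, -0.50 and -0.56. The DMEM + Rux libraries also entered the contrast that chose Mt1, so this p and these passes are not independent of that choice.

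In CM + Rux 2 h, Mt1 was at 96.2 and 103.8 CPM and Mt2 at 76.3 and 75.7 CPM, above every CM + Rux 4 h library. The log2 difference from the 4 h group was 0.48 for Mt1 (95% interval 0.08 to 0.89, adjusted p = 0.057) and 0.51 for Mt2 (95% interval -0.10 to 1.12, adjusted p = 0.17), and neither passed. Both passed without CM + Rux 4 h replicate 2, the highest of its group, at 0.60 (adjusted p = 0.034) and 0.78 (adjusted p = 0.047). The 4 h libraries entered the contrast that chose Mt1, so the Mt1 p-values here are not independent of that choice.

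The ratio of Mt1 to Mt2 lay in separate ranges by medium and inhibitor. Mt1 counts were 5.95 to 6.90 times Mt2 counts in the 5 DMEM libraries with or without ruxolitinib, 1.16 to 2.27 times in the 8 CM libraries without IKK-16, and 4.28 to 5.53 times in the 3 libraries with IKK-16. The 3 ranges did not overlap, and no test was run on the ratio. Which gene is higher per length in CM depended on the length used. Per base of all annotated exons (1246 for Mt1, 588 for Mt2) the ratio in the 8 libraries was 0.547 to 1.07, and per base of the principal transcript (549 and 511) it was 1.08 to 2.11. In DMEM and with IKK-16, Mt1 was above Mt2 by either length. The other metallothionein genes, Mt3 and Mt4, did not pass the filter: Mt3 had 3 counts in 1 CM + Rux 4 h library and 1 count in 1 DMEM + Rux library, and Mt4 had none in any library.

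**Figure D2:**
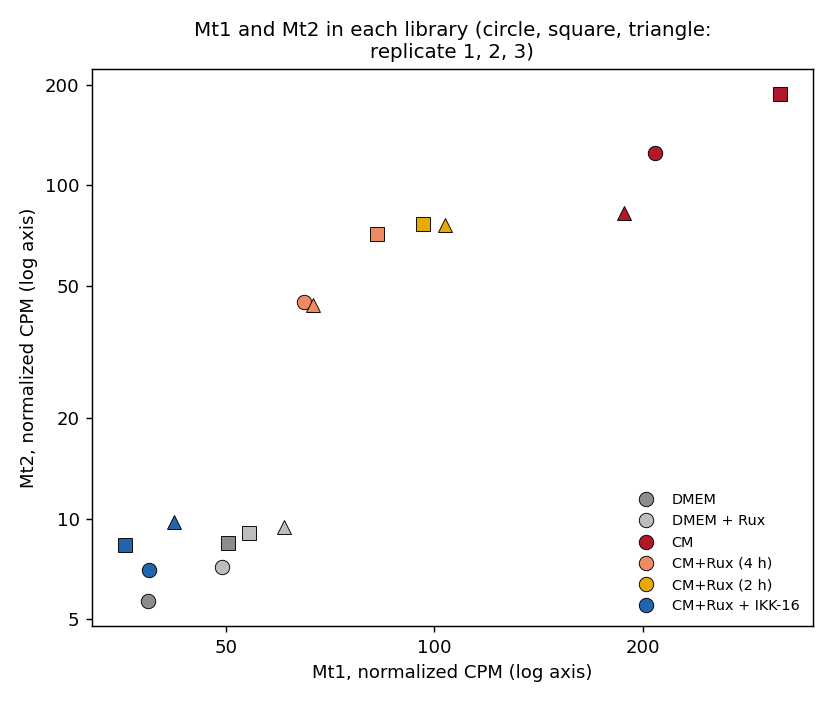
Mt1 against Mt2 in each of 16 libraries (normalized CPM, log axes); colors are groups and shapes are replicate numbers. The 3 IKK-16 libraries lie with the 5 DMEM libraries at Mt2 below 10 CPM, and the 8 other CM libraries lie above 43 CPM.

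Mtf1, the zinc sensor, had a small and even response. It was at 35.5 and 30.1 CPM in DMEM and at 37.2, 32.6 and 31.0 CPM in DMEM + Rux. In the CM groups it was at 58.6, 54.8 and 50.3 CPM (CM), 59.2, 54.2 and 55.0 CPM (CM + Rux 4 h), 53.9 and 51.8 CPM (CM + Rux 2 h), and 58.9, 50.7 and 53.1 CPM (CM + Rux + IKK-16). Every library with CM lay above every library without, and the CM groups overlapped except that both 2 h libraries lay just below the 4 h libraries. The rise was 1.66-fold without ruxolitinib (log2 fold change 0.73 ± 0.10 SE, adjusted p = 3.3e-05), 1.67-fold with it (0.74 ± 0.09 SE, adjusted p = 6.3e-06) and 1.62-fold with both inhibitors against DMEM + Rux (0.69 ± 0.09 SE, adjusted p = 1.9e-05). By library totals these were 0.42, 0.44 and 0.48 on the log2 scale, under the fold threshold. The difference with IKK-16 was -0.05 (95% interval -0.24 to 0.14, and 0.036 by library totals), and the 2 h group differed from the 4 h group by -0.09 (95% interval -0.30 to 0.13), neither of which passed. The described differences with ruxolitinib were 0.04 in CM and 0.03 in DMEM.

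Slc39a14, the importer, rose with CM whether or not ruxolitinib was present. It was at 527.4, 583.2 and 480.6 CPM in CM against 39.2 and 27.3 CPM in DMEM, 15.9-fold higher (log2 fold change 3.99 ± 0.21 SE, adjusted p = 5.0e-09). With ruxolitinib in both media it was at 427.3, 486.3 and 399.5 CPM against 30.5, 26.5 and 26.3 CPM, 15.8-fold higher (3.98 ± 0.18 SE, adjusted p = 5.3e-10). The described ruxolitinib differences were -0.28 ± 0.16 SE in CM and -0.26 ± 0.18 SE in DMEM, and their difference was -0.01 ± 0.24 SE. In every same-numbered pair, in CM (4 h) and in DMEM, the library with ruxolitinib was the lower one. Without DMEM replicate 1 the value in DMEM was 0.02 and the difference -0.30, and without DMEM replicate 2 the value in DMEM was -0.50. With IKK-16 it was at 147.6, 225.9 and 178.5 CPM, 2.38-fold lower than in CM + Rux 4 h (-1.25 ± 0.16 SE, adjusted p = 2.8e-04) and still 6.64-fold above DMEM + Rux (2.73 ± 0.17 SE, adjusted p = 1.8e-08). So the IKK-16 libraries of Slc39a14 lay between the other CM groups and DMEM, while those of Mt2 overlapped DMEM. The 2 h libraries, at 420.4 and 350.9 CPM, overlapped the 4 h group (-0.18, 95% interval -0.56 to 0.19).

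Slc30a1, the exporter, moved the other way. It was at 47.6 and 57.6 CPM in DMEM and 10.3, 5.70 and 14.5 CPM in CM, 5.23-fold lower (log2 fold change -2.39 ± 0.42 SE, adjusted p = 2.4e-04). It was at 44.8, 56.2 and 53.6 CPM in DMEM + Rux and 17.9, 12.1 and 25.9 CPM in CM + Rux 4 h, 2.80-fold lower (-1.49 ± 0.38 SE, adjusted p = 0.0030). The groups with and without CM did not overlap in either comparison. The described ruxolitinib difference was 0.87 ± 0.39 SE in CM, where the groups overlapped but the library with ruxolitinib was the higher one in 3 of 3 replicate numbers, and -0.03 ± 0.40 SE in DMEM.

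With IKK-16 Slc30a1 was at 34.6, 19.8 and 38.6 CPM, 1.69-fold above CM + Rux 4 h (log2 fold change 0.75 ± 0.37 SE, adjusted p = 0.20) and 1.66-fold below DMEM + Rux (-0.73 ± 0.37 SE, adjusted p = 0.099), and neither passed. With the replicate number as a block, both passed, at 0.76 (adjusted p = 0.034) and -0.81 (adjusted p = 0.0078). In each of the 4 CM groups replicate 2 was the lowest library for Slc30a1, and in both DMEM groups it was the highest. The 2 h libraries lay far apart, at 16.1 and 41.1 CPM, and their mean difference from the 4 h group (0.61, 95% interval -0.29 to 1.51, adjusted p = 0.27) turned to -0.20 without replicate 3, where replicate 2 is set against the whole 4 h group. In both same-numbered pairs the 2 h library was the higher one, and with the replicate block the difference did not pass either.

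**Figure D3:**
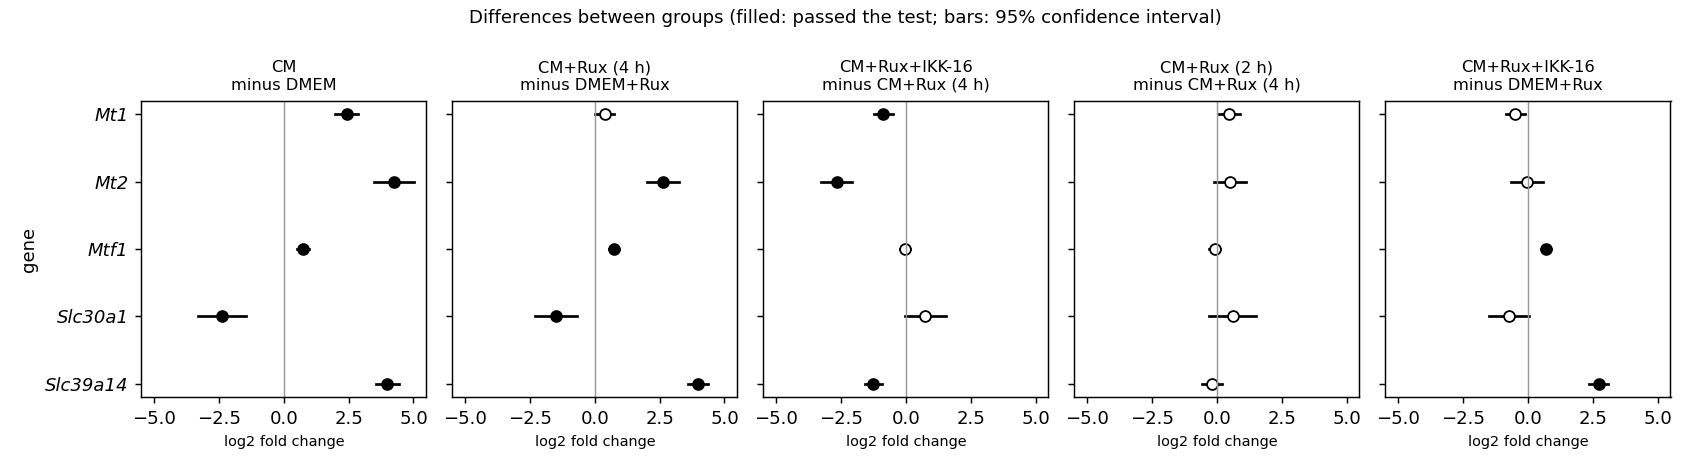
Log2 fold change of the 5 genes in 5 comparisons, from edgeR; points are estimates, bars are 95% intervals and filled points passed the test. Slc39a14 lies near 4 with and without ruxolitinib and Mt2 falls below 0 with IKK-16 added. The step between the first pair of panels is the contrast that chose Mt1, so it is no result for Mt1.

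Side by side, 4 of the 5 genes were called higher and 1 lower in CM against DMEM, where 20.9% of all genes tested were higher and 24.1% lower, and the call of Mt1 among the 4 is not independent of its choice. In CM + Rux 4 h against DMEM + Rux, 3 were higher and 1 lower, beside 22.3% and 25.0% of all genes. With IKK-16 against CM + Rux 4 h, 3 were lower and none higher, beside 3.66% and 4.07% of all genes. In CM + Rux 2 h against 4 h, edgeR and DESeq2 called none of the 5, beside 12.6% of all genes higher and 10.7% lower, and 1 had an unadjusted p under 0.05. In CM + Rux + IKK-16 against DMEM + Rux, 2 were higher, beside 17.8% of all genes higher and 19.6% lower. These comparisons share libraries with each other, so their calls are not independent. All of them also share libraries with the contrast that chose Mt1, so no call of Mt1 is independent of that choice. The calls of Mt2, which followed Mt1, are not free of it either. Scaling by library totals moved the share of calls that were higher from 46.4% to 25.0% in CM against DMEM, from 47.1% to 26.7% with ruxolitinib in both media, from 52.7% to 67.5% with IKK-16 against CM + Rux 4 h, from 54.0% to 44.0% at 2 h against 4 h, and from 47.6% to 30.1% with both inhibitors against DMEM + Rux.

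Other zinc transporters were read from the same fit. Of 9 other SLC30 and 13 other SLC39 genes, 5 and 10 passed the filter, with log2 differences of -0.61 to 1.03 in CM against DMEM. In CM against DMEM, where 20.9% of all genes were higher and 24.1% lower, 3 of the 5 exporters were higher, namely Slc30a7 and Slc30a6, which load zinc into the secretory pathway (log2 fold change 1.03 ± 0.08 and 0.54 ± 0.08 SE), and Slc30a9, a mitochondrial zinc exporter (0.83 ± 0.08 SE). Slc30a5, the partner of Slc30a6, was lower (-0.52 ± 0.13 SE). Of the 10 importers, 5 were higher and none lower: Slc39a10 (0.96), the plasma membrane importer Slc39a1 (0.84), Slc39a7, which releases zinc from the endoplasmic reticulum (0.78), Slc39a13 (0.70) and Slc39a8 (0.63). The median was 0.54 over the exporters and 0.44 over the importers, beside -0.00496 over all genes tested. Without DMEM replicate 2, Slc30a5 (-0.25), Slc39a7 (0.62) and Slc39a13 (0.40) no longer passed, and without CM replicate 1 Slc30a5 (-0.45) did not. By library totals Slc30a6 (0.23), Slc39a7 (0.46), Slc39a8 (0.32) and Slc39a13 (0.39) did not pass.

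With ruxolitinib in both media, 7 of the 15 passed in either direction, near the share of all genes (22.3% higher and 25.0% lower): Slc30a7 (0.94), Slc30a9 (0.76), Slc30a6 (0.73), Slc39a13 (1.06), Slc39a1 (0.88) and Slc39a7 (0.75) were higher and Slc30a5 (-0.68) lower. With both inhibitors against DMEM + Rux, 6 passed, also near the share of all genes (17.8% higher and 19.6% lower): Slc30a7 (0.89), Slc39a13 (0.77), Slc39a7 (0.67), Slc39a1 (0.60) and Slc30a9 (0.59) higher and Slc30a5 (-0.51) lower, the last of these not without CM + Rux + IKK-16 replicate 2 (-0.49) or DMEM + Rux replicate 2 (-0.39). Adding IKK-16 to CM and ruxolitinib changed none of the 15 by edgeR or DESeq2, beside 4.07% of all genes higher and 3.66% lower, with log2 differences of -0.34 to 0.16 and 4 at an unadjusted p under 0.05. No group held IKK-16 without ruxolitinib. In the 2 h group Slc39a13 was higher (0.54) and Slc39a3 (-0.59) and Slc30a9 (-0.57) lower than at 4 h, beside 12.6% of all genes higher and 10.7% lower, and with the replicate block Slc39a7 (-0.55, adjusted p = 0.023) was lower too. By library totals all 26 calls of these transporters across the comparisons kept their direction and 15 stayed beyond the fold threshold. Without CM + Rux 2 h replicate 3 neither Slc39a3 (-0.55) nor Slc39a13 (0.49) passed, and Slc39a13 did not pass without CM + Rux 4 h replicate 1 (0.499) or by library totals (0.47) either.

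Ruxolitinib in CM lowered 1 of the 15, Slc39a10, a plasma membrane importer, from 115.7 ± 32.8 to 65.4 ± 14.1 CPM (SD, n = 3 each; log2 fold change -0.82, adjusted p = 0.031), beside 2.13% of all genes lower and 1.20% higher. The call was lost without CM replicate 2 (-0.57, adjusted p = 0.15), without CM + Rux 4 h replicate 1 or 3, and with only the groups compared in the fit (-0.82, adjusted p = 0.0995). Ruxolitinib in DMEM changed none of the 15 by edgeR or DESeq2, and none at an unadjusted p under 0.05, beside 0.970% of all genes. For the difference between these effects, edgeR and DESeq2 called none of the 15, beside 0.412% of all genes, and 2 had an unadjusted p under 0.05. With the replicate block those were Slc39a10 (-0.94, adjusted p = 0.021) and Slc39a8, an importer of the plasma membrane and lysosome (-0.55, adjusted p = 0.023), and the block raised the genes called from 51 to 444 in all for this difference and from 412 to 745 for ruxolitinib in CM.

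**Figure D4:**
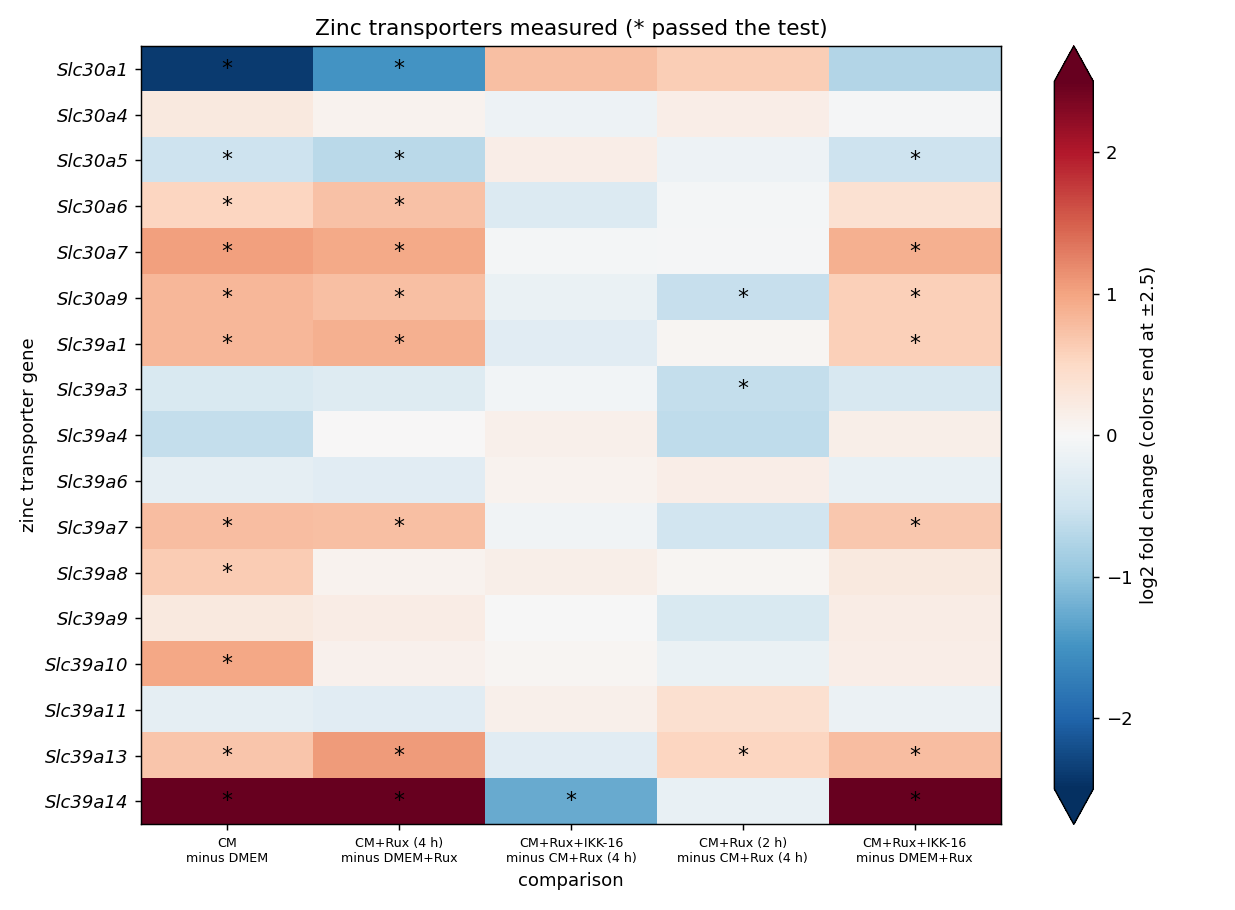
Log2 fold change (color, ending at ±2.5) of the 17 zinc transporter genes that passed the filter in 5 comparisons, from edgeR; asterisks mark genes that passed the test. Slc30a1 and Slc39a14 have the strongest colors, and the column for IKK-16 holds 1 asterisk, at Slc39a14.

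Per length, the order of the transporters differed between DMEM and CM. Over the 24 SLC30 and SLC39 genes, Slc39a1 was highest in all 6 groups, at 82.9 ± 4.03 CPM per kilobase of exon in DMEM (SD, n = 2) and 148.1 ± 8.87 in CM (SD, n = 3). Slc39a14 ranked 15 in DMEM at 3.15 ± 0.80 and 2 in CM at 50.3 ± 4.87 CPM per kilobase. Slc30a1 ranked 5 in DMEM at 10.04 ± 1.35 and 17 in CM at 1.94 ± 0.84 CPM per kilobase. With the length of the principal transcript the ranks were 11 and 2 for Slc39a14 and 8 and 17 for Slc30a1. With IKK-16, Slc39a14 ranked 3 (2 by principal transcript) and Slc30a1 12 (13).

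Across the 16 libraries, Mt1 and Mt2 had a Pearson r of 0.90 on log2(CPM + 0.5). Slc39a14 went with Mtf1 (r = 0.93) and Mt2 (0.83) more closely than with Mt1 (0.61), and Slc30a1 was opposite to all 4 (r from -0.71 against Mtf1 to -0.84 against Slc39a14). The libraries fall into groups that share a medium, so these values describe the groups and have no p. Ranked against 11559 genes averaging 1 CPM or more, those most like Slc39a14 were Ube2z (r = 0.997), Snapc1 (0.995) and Rhbdf2 (0.995), and the most opposite was Plekhm1 (-0.992). Those most like Mt2 were Tmem127 (0.972), Tmem243 (0.963) and Rap2c (0.958), with Cxcr4 the most opposite (-0.965). Those most like Mt1 were Ssbp4 (0.917), Tbc1d9b (0.915) and Anxa6 (0.910), with Spata7 the most opposite (-0.910). For Mtf1 they were Fndc3b (0.982), Abi3 (0.972) and Smg8 (0.971), with Cutc opposite (-0.975), and for Slc30a1 Zxdc (0.963), Wdr91 (0.963) and Vac14 (0.953), with Atp8b2 opposite (-0.984). By Spearman's rho none of the 3 genes most like each member was the same, and Mt1 and Mt2 were then among the 3 most like each other (rho = 0.944).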

How the data were processed

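Reads were trimmed by the authors (Trimmomatic 0.33), mapped to GRCm38 (HISAT2 2.1.0), and the authors counted properly paired fragments over Ensembl exons with featureCounts 1.6.2, keeping the strand and a mapping quality of at least 10 and leaving out reads with several places. They deposited raw counts per gene in 16 samples of 6 groups. Symbols came from GENCODE M21, which gave one to 55141 of 55487 identifiers, all members included. Reads shared by near-identical copies were not counted by the authors.

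Genes were kept where 2 or more samples exceeded 1 CPM, and were tested with edgeR 4.0.16 (R 4.3.3) by quasi-likelihood with RLE factors, 6 groups in 1 fit and Benjamini-Hochberg adjustment, as in the study's own filter and thresholds. The fit was also run on simulated counts of independent libraries, with changes set in CM only. Those counts held no effect of the replicate number, so that run cannot test the fit on libraries that deviate together. Members and lists were chosen with earlier results of these data known. Eligible to be named were all members, in each list the 2 called genes with the largest rise and fall per comparison, every called SLC30 or SLC39 gene, and per member the 3 genes most like it and the 1 most opposite (pseudocount 0.5). Of the lists other than SLC30 and SLC39, only some of the eligible genes are named in the text. Same-numbered libraries of compared groups deviated together (r = 0.161 to 0.717 over 18 pairs, against at most 0.0585 between different numbers), so the numbers were read as pairs, from the data alone. The main fit held no term for these pairs, and its SE and p-values are unpaired. Among the fits, the pairs entered only the replicate block, which was an alternative. No library was a copy of another. Alternatives were TMM, no filter, filterByExpr, DESeq2 1.42.0, the replicate block, only the groups compared, each library left out and, chosen after seeing the data, the principal transcript length and library totals. Promoter sequences were from RefSeq. Figures were drawn with matplotlib.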

Additional observations from a re-analysis of the deposited data

Results flagged for a closer look

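Among the members and the listed genes, 3 moved one way in every CM + Rux 4 h library against CM and the other way in every DMEM + Rux library against DMEM: Sgk1, a glucocorticoid-responsive kinase gene, Hmox1, the heme-degrading enzyme gene that NRF2 induces, and Cish, a feedback inhibitor gene of JAK-STAT signaling. The 2 h libraries did not share this for Hmox1 (140 and 150 CPM, against 291 to 356 CPM in CM) or Sgk1 (103 and 113 CPM, against 108 to 145 CPM in CM). Cish at 2 h (111 and 115 CPM) lay below CM (122 to 147 CPM), as at 4 h. The effect in CM minus that in DMEM was 0.60 for Sgk1 and 0.51 for Hmox1 on the log2 scale. It was -2.15 for Cish, which had 5 and 3 counts in DMEM and 7, 12 and 10 counts in DMEM + Rux. The genes were picked by this pattern from the same libraries, so the difference is a description, was not tested on other libraries and has no p here. No member met this rule.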

How the results depend on the processing

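Over 25 differences of the 5 genes in the 5 comparisons tested, 293 of 315 values under the alternatives kept their direction and side of the threshold, 3 lost a call, 14 gained one and 5 reversed. With the replicate block Slc30a1 passed for IKK-16 (0.76) and for both inhibitors against DMEM + Rux (-0.81), and the block changed no other call of a member. Over 600 differences of the listed genes the block added 40 calls and removed none. Without a filter on low counts the same Slc30a1 differences (0.76 and -0.72) and Mt2 at 2 h (0.51) passed. With only the groups compared in the fit, Slc30a1 for both inhibitors against DMEM + Rux (-0.73) and Mt1 at 2 h (0.51) passed. By library totals, chosen after seeing the data, Mtf1 lost its 3 calls (0.42 in CM against DMEM, 0.44 with ruxolitinib in both media, 0.48 with both inhibitors against DMEM + Rux) and reversed for IKK-16 (0.036), and Mt1 (-0.71) and Slc30a1 (-0.94) passed for both inhibitors against DMEM + Rux. Leaving out 1 library gave 0.42 to 0.60 for Mt1 and 0.39 to 0.78 for Mt2 at 2 h, -0.20 to 1.15 for Slc30a1 at 2 h, and, for both inhibitors against DMEM + Rux, -0.56 to -0.41 for Mt1 and -0.17 to 0.070 for Mt2, which reversed sign near 0. A group left with 1 library was assumed to vary like the others. Of the described ruxolitinib values, 10 of 215 moved by more than their SE, each without 1 library: Mt1 to -1.47 and Mt2 to -0.96 in CM without CM replicate 2, Mt2 to -1.58 without CM + Rux 4 h replicate 2, in DMEM Mt1 to 0.50 without DMEM replicate 2 and Mtf1 to 0.16 without DMEM replicate 1 and -0.08 without replicate 2, the Mt1 difference between media to -1.77 without CM replicate 2, and the 3 values of Slc39a14 given above.

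The number of genes called for ruxolitinib in CM was 412, with 685 under no filter and 745 with the block, and 243 to 486 without 1 library. For the difference between the ruxolitinib effects it was 51, with 349 under no filter, 444 with the block, 234 by DESeq2, 90 by library totals and 17 to 114 without 1 library. The cause was not tested. In the other 6 comparisons the counts stayed within 1.5 times. The fewest counts lay behind Mt2 in the DMEM and IKK-16 groups and Slc30a1 in CM.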

Other observations

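Metallothioneins also hold copper. Of 14 copper-handling genes tested (of 16 listed), CM raised 5 and lowered 2 relative to DMEM, beside 20.9% and 24.1% of all genes. Slc31a1, the plasma membrane copper importer, was at 384 ± 31.8 CPM in CM (SD, n = 3) and 134 ± 15.99 CPM in DMEM (SD, n = 2), a log2 fold change of 1.52 ± 0.11 SE (adjusted p = 1.1e-07), and its difference with ruxolitinib in CM was 0.15 (adjusted p = 0.55). Steap4, a metalloreductase of copper and iron, was at 2.66 ± 1.35 CPM in CM and 0.109 ± 0.0593 CPM in CM + Rux 4 h (SD, n = 3 each), and at 0 and 0.0409 CPM in DMEM. It is 1 of the 5 raised and passed the filter only through the CM libraries, so these values are a description. Steap3, another metalloreductase, was lower in CM (-1.97 ± 0.13 SE) and higher with IKK-16 than in CM + Rux 4 h (0.86 ± 0.12 SE, adjusted p = 5.4e-04). Cp, also of this list, was lower with IKK-16 than in CM + Rux 4 h (-1.33 ± 0.26 SE, adjusted p = 0.0042). So 1 of the 14 was higher and 1 lower with IKK-16, beside 4.07% and 3.66% of all genes.

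Of 7 genes listed for metal withholding from microbes, 4 passed the filter. Lcn2, which binds iron-carrying siderophores, was at 13.8 ± 2.69 CPM in CM (SD, n = 3) and 0.213 ± 0.243 CPM in DMEM (SD, n = 2), and S100a8, a zinc- and calcium-binding subunit of calprotectin, at 1.90 ± 0.50 and 0.247 ± 0.0563 CPM. Both passed the filter only through libraries with CM, so the difference between media is a description. The iron exporter Slc40a1 was lower in CM than in DMEM (log2 fold change -6.50 ± 0.38 SE). Lcn2 was at 0.915 ± 0.310 CPM with IKK-16 and 8.50 ± 2.71 CPM in CM + Rux 4 h (SD, n = 3 each). That is a fall of 3.19 ± 0.36 SE on the log2 scale. It passed the filter only through CM libraries without IKK-16, so this fall is a description too. Of the lists of signals known to act on metallothionein genes, in CM against DMEM, where 20.9% of all genes were higher and 24.1% lower, 10 of 11 IL-6/STAT3-responsive genes were higher and 1 lower, 4 of 10 glucocorticoid-responsive genes higher and 3 lower, 3 of 12 NRF2 targets higher and 3 lower, and 5 of 9 heat shock genes higher and none lower, with Hspa1a (0.52, adjusted p = 0.040) also higher with the replicate block. Of these, Il10 and Cish (higher) would not have passed the filter without the libraries with CM, nor the glucocorticoid-responsive Zbtb16 and Cd163 (lower) without those of the DMEM groups, so these calls lend the counts no support. With ruxolitinib in CM, 4 of the 11 IL-6/STAT3-responsive genes were lower, Timp1 (-1.98) and Il4ra (-1.16) among them, beside 2.13% of all genes, and 10 of the 11 were still higher in CM + Rux 4 h than in DMEM + Rux (22.3% of all genes). Il10 and Cish are again among the 10, and their calls lend this count no support either. With IKK-16, 6 of the 11 were lower than in CM + Rux 4 h, beside 3.66% of all genes. With the replicate block, Junb (-0.62, adjusted p = 0.026) and Il4ra (-0.61, adjusted p = 0.0020) were lower with IKK-16 too, and Il10 was higher with ruxolitinib in CM (1.98, adjusted p = 4.4e-04). The lists were drawn up with earlier results of these data known.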
